A study of Homo sapiens with 27 samples.

Results

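The genes described here are 7 WNT ligands (WNT3, WNT4, WNT5A, WNT5B, WNT7A, WNT7B and WNT10A) and 3 secreted antagonists of the pathway (DKK1, DKK3 and SFRP1). They were taken by symbol from the deposited gene table. They occupied 12 of its 40487 rows, because WNT3 had 3 rows that were summed, and made 10 of the 36536 genes left after such summing. All 10 had enough counts to be tested, as did 15575 genes in all. The cells were MCF10A, an established non-tumorigenic line of human mammary epithelium. Before the experiment they were grown with 5% horse serum, hydrocortisone, cholera toxin, insulin and EGF at 20 ng/ml. They then spent 18 h in growth-factor-free medium and received ligands in fresh medium of that kind for 24 h. The 9 groups of 3 libraries were cells at the start of treatment (T0, 0 h), cells given phosphate-buffered saline (PBS), and cells given epidermal growth factor (EGF), the interleukin-6-type cytokine oncostatin M (OSM) or transforming growth factor beta (TGFB) alone. The other groups received EGF+OSM, EGF+TGFB, OSM+TGFB or EGF+OSM+TGFB, with each ligand at 10 ng/ml. The labels do not say whether the 3 replicates were separate cultures, so the p-values measure only the spread between these libraries. All data come from 1 line in 1 culture format.

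WNT proteins are secreted lipid-modified ligands that bind Frizzled receptors. In the canonical branch, Frizzled and the co-receptors LRP5 and LRP6 stabilise beta-catenin, which then acts on genes with TCF/LEF factors. Other branches act through receptors such as ROR1, ROR2 and RYK on cell shape and movement. SFRP1 binds WNT ligands outside the cell, DKK1 blocks LRP5 and LRP6, and DKK3 is a divergent member of the Dickkopf family whose place in the pathway is less settled. In the mammary gland WNT4 is a paracrine signal that acts downstream of progesterone and supports stem cells, and WNT5A is mostly associated with beta-catenin-independent signalling.

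The libraries held between 30.1 M and 52.9 M counts each (M, mega; median 39.5 M). The unit of level is CPM, counts per 1 M counts, after scaling by the trimmed mean of M-values, as mean ± SD over 3 libraries. The basal keratins KRT5 (3313 to 9188 CPM) and KRT14 (561 to 2958 CPM) and the basal factor TP63 (84.3 to 199 CPM) were high in every library. The luminal keratins KRT8 (128 to 714 CPM) and KRT18 (109 to 430 CPM) were also present, whereas KRT19 reached at most 0.755 CPM. The leukocyte genes PTPRC and CD3E reached at most 0.225 CPM, and CD68 lay between 20.2 and 50.4 CPM. Among fibroblast genes PDGFRA and LUM stayed under 0.317 CPM, whereas the matrix genes DCN (7.42 to 103 CPM) and COL1A1 (3.82 to 118 CPM) were present. The summed fibroblast list ranged from 13.1 to 15.3 CPM in EGF+OSM and from 204 to 214 CPM in TGFB.

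Promoter sequence was available in the RefSeq table for 7 of the 10 genes, and 250 bases upstream of each annotated start were searched on both strands. The motifs were TCAAAG (TCF/LEF), TGANTCA (AP-1), TTCNNNGAA (STAT) and CAGAC (SMAD). The windows shown are those of DKK1, which fell 11.2-fold with OSM and rose with TGFB, and of WNT3 and WNT5A, which were highest with all 3 ligands. Capitals mark the letters of a match, coordinates are GRCh38.p14, and each run reads 5′ to 3′ on the gene's strand. They lie at chr10:52314031-52314280 (plus strand), chr17:46818693-46818942 (minus strand) and chr3:55487307-55487556 (minus strand, the first of the 2 WNT5A starts).
DKK1: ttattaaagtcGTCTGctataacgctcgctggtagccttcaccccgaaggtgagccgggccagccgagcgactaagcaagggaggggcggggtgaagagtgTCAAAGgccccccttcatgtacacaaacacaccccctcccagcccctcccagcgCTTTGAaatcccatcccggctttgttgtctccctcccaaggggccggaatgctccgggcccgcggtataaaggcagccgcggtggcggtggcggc
WNT3: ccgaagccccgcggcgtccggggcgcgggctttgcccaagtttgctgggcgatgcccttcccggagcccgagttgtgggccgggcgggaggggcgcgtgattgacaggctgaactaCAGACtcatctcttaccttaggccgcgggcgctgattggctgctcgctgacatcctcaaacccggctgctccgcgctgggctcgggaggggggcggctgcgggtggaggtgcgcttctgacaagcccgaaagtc
WNT5A: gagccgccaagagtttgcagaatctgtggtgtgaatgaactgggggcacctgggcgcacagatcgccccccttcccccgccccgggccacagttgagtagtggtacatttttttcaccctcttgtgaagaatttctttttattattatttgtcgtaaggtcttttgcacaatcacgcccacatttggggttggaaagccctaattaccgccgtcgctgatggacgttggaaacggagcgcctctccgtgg
The DKK1 window held 2 TCF/LEF matches, at 149 to 144 bases before the start on the plus strand and at 95 to 90 bases before it on the minus strand. It also held 1 SMAD match at 239 to 235 bases. WNT3 had 1 SMAD match, at 134 to 130 bases, and the WNT5A window had no match to any of the 4 motifs. Over all 35116 windows of the same length, 11.2% held TCF/LEF letters, 6.57% AP-1, 6.57% STAT and 38% SMAD. Among the other windows of these genes, 1 of the 2 WNT5B starts held a SMAD match, and those of WNT4, WNT7A, WNT10A and the second WNT5A start held none. A match is a string of letters and not a measured binding site.

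The 10 genes moved in different directions with the same treatment. In EGF+OSM+TGFB WNT3, WNT5A, WNT5B, WNT7A, DKK3 and SFRP1 were higher than in PBS, and WNT4, WNT7B, WNT10A and DKK1 were lower. WNT3, WNT7A and SFRP1 rose with all 7 treatments, WNT4 and WNT10A fell with all 7, and WNT5A, WNT7B and DKK1 went both ways. Calls here mean a Benjamini-Hochberg p below 0.05, adjusted over all 15575 genes, in the quasi-likelihood test of edgeR. These are bulk libraries, so fewer cells that express a gene and less RNA per cell cannot be told apart.

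**Figure D1:**
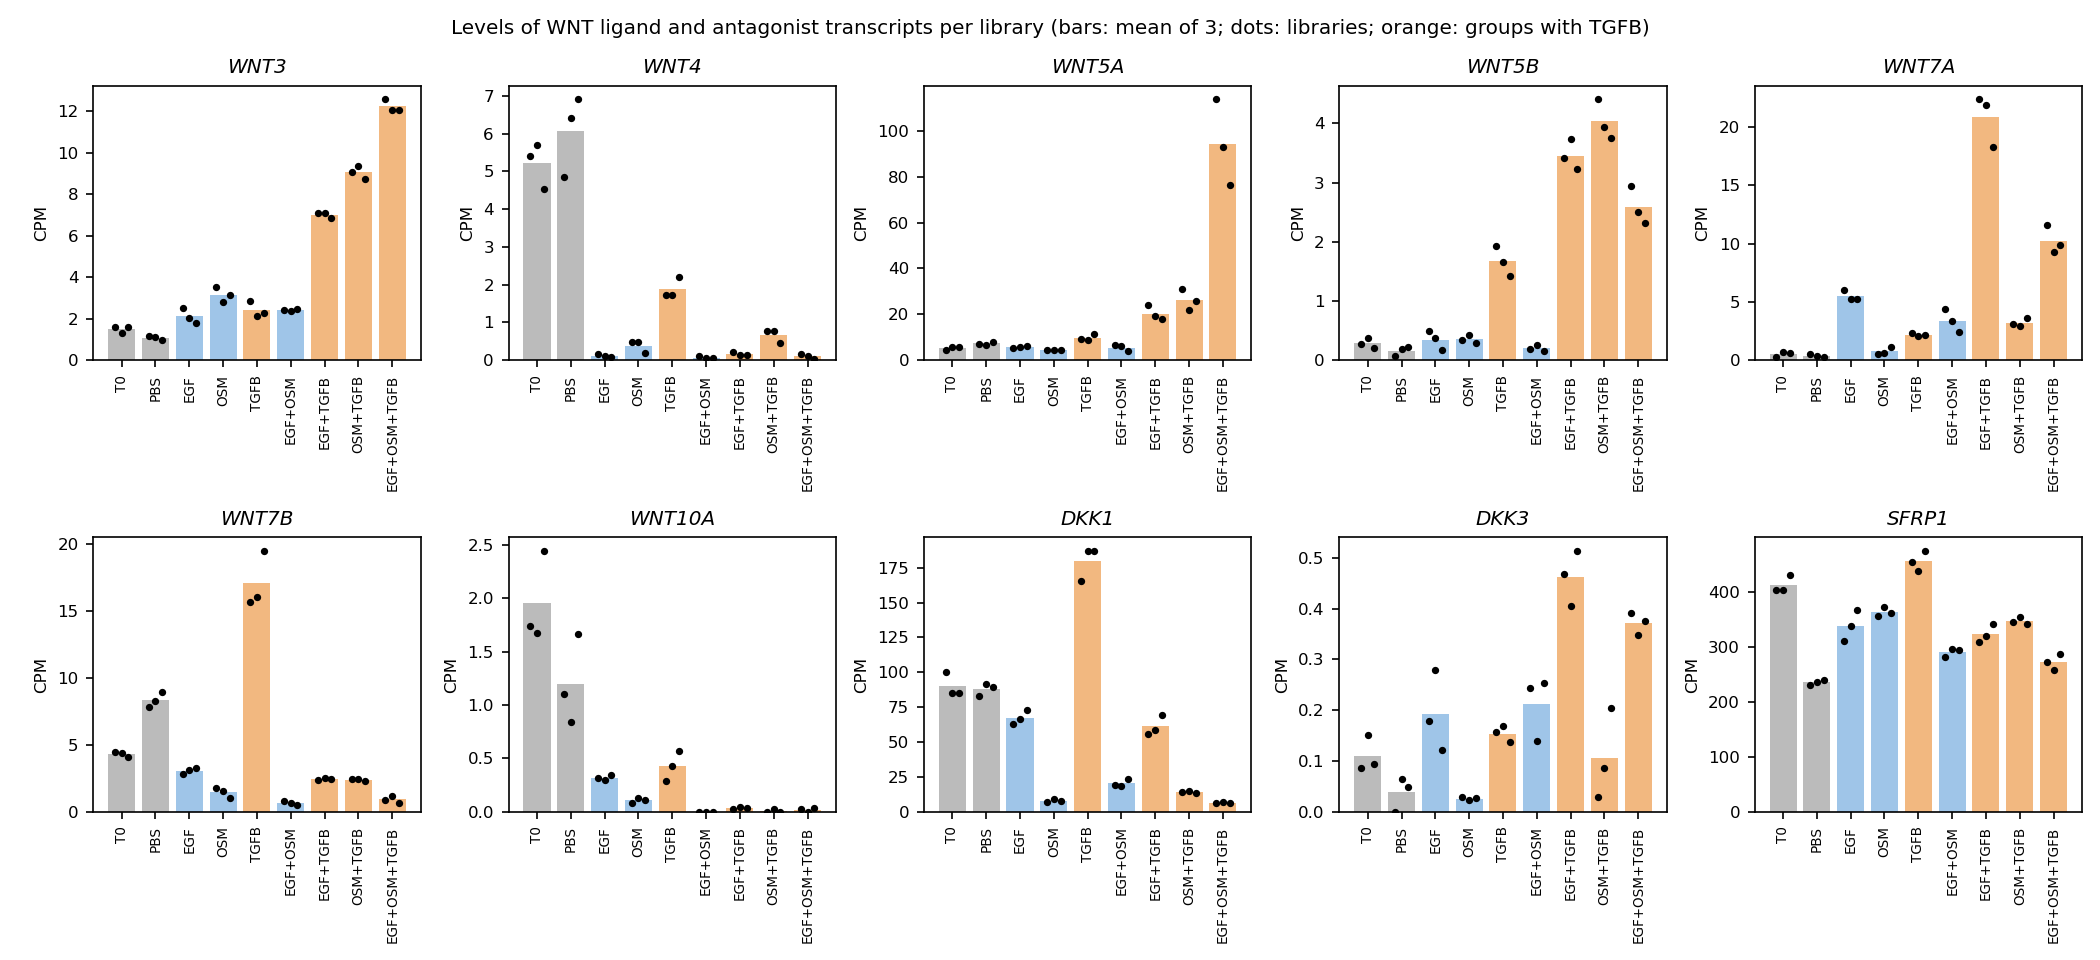
Level of each gene in CPM (y axis, linear from 0) in the 9 groups (x axis). Bars are means of 3 libraries and dots are the libraries; grey bars are T0 and PBS, blue bars treatments without TGFB and orange bars treatments with it. WNT5A stands at 94.4 CPM in EGF+OSM+TGFB against 26.2 CPM in the next group, and DKK1 at 180 CPM in TGFB.

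Counts of called genes are set beside the share of all tested genes called in the same comparison. In either direction, 9 of the 10 genes were called with EGF (73.5% of all genes), OSM (63.4%), TGFB (35.6%), EGF+OSM (77.2%) and OSM+TGFB (66%), and all 10 with EGF+TGFB (73.7%) and EGF+OSM+TGFB (74.4%). Most tested genes were thus called with every treatment but TGFB alone. By direction, with EGF 5 of 10 genes were higher (34.9% of all genes) and 4 lower (38.6%). OSM raised 4 (33.5%) and lowered 5 (29.8%). TGFB raised 7 (19.9%) and lowered 2 (15.8%). EGF+OSM raised 4 (37.6%) and lowered 5 (39.6%). EGF+TGFB raised 6 (36.2%) and lowered 4 (37.5%), OSM+TGFB raised 5 (34.2%) and lowered 4 (31.8%), and EGF+OSM+TGFB raised 6 (37.7%) and lowered 4 (36.7%). Between PBS and T0, WNT7B was called higher (16.2%) and 2 genes, WNT3 and SFRP1, were lower (18.9%) in PBS. The WNT3 call for PBS against T0 (-0.47, adjusted p 0.018) was lost without T0 replicate 1 (0.07) or 3 (0.0635) or PBS replicate 3 (0.089).

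Many of the changes were large. Changes of at least 2-fold were called for 6 genes with EGF (27.5% of all genes), 6 with OSM (20.1%), 8 with TGFB (5.8%), 7 with EGF+OSM (34.7%), 8 with EGF+TGFB (30.1%), 8 with OSM+TGFB (24.2%), 9 with EGF+OSM+TGFB (31.4%) and 0 between PBS and T0 (5.52%). For the last, DESeq2 also gave 0, 1 gene (DKK3) had an unadjusted p under 0.05 with 2-fold, and 1 was called without PBS replicate 3. The 8 with TGFB were WNT3, WNT4, WNT5B, WNT7A, WNT7B, WNT10A, DKK1 and DKK3, and without PBS replicate 1 the number was 5. The median log2 fold change of the 10 genes was 1.03 with TGFB (all genes -0.01), 0.08 with EGF (all genes -0.07) and -0.61 with OSM (all genes 0.00). It was 0.97 with EGF+TGFB (all genes -0.04), 0.96 with OSM+TGFB (all genes 0.00) and 1.68 with EGF+OSM+TGFB (all genes 0.00). With EGF+OSM it was -0.07, also with WNT10A set to its limit, against -0.05 for all genes. For PBS against T0 it was -0.50 (all genes -0.01). The genes were chosen with earlier results known, and the 7 treatments share the PBS libraries.

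**Figure D2:**
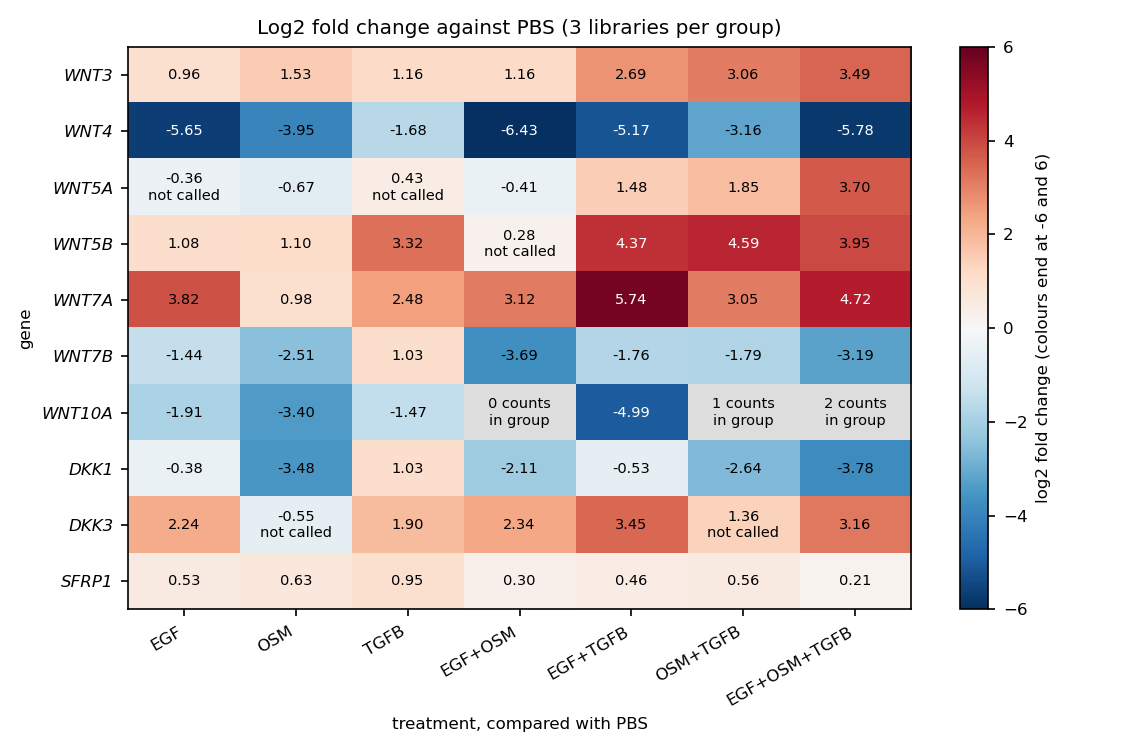
Log2 fold change of each gene (rows) for the 7 treatments against PBS (columns), 3 libraries per group, with red for higher and blue for lower. Grey cells give the summed count of WNT10A where the treated group held at most 2 counts; the strongest rise shown is WNT7A in EGF+TGFB (5.74).

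WNT5A (chromosome 3, 55465715 to 55490539, minus strand, GRCh38) is the ligand most tied to beta-catenin-independent signalling. Its libraries held 4.66, 5.68 and 5.64 CPM at T0, 7.18, 6.75 and 7.94 CPM in PBS, and 5.19, 5.77 and 6.05 CPM in EGF. OSM libraries held 4.61, 4.62 and 4.51 CPM, TGFB libraries 9.24, 8.76 and 11.6 CPM, and EGF+OSM libraries 6.45, 6.05 and 3.89 CPM. EGF+TGFB libraries held 24.0, 19.3 and 17.8 CPM, OSM+TGFB libraries 31.2, 21.8 and 25.8 CPM, and EGF+OSM+TGFB libraries 113.8, 93.0 and 76.3 CPM. No single ligand took the gene far from PBS, both pairs with TGFB did, and the lowest library with all 3 ligands lay well above the highest with any pair. Only OSM+TGFB and EGF+TGFB, EGF and EGF+OSM, and EGF+OSM and T0 overlapped among neighbours in the order of levels.

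WNT5A fell 1.59-fold with OSM (log2 fold change -0.67 ± 0.19 SE, adjusted p 0.00398). With TGFB alone the log2 fold change was 0.43 ± 0.18 (adjusted p 0.0596) and with EGF alone -0.36 ± 0.18 (adjusted p 0.079), neither called. These are borderline: TGFB was called in DESeq2 (adjusted p 0.0364) and with only the groups compared (0.0113), and EGF under upper-quartile scaling (-0.43, adjusted p 0.0399) and with only the groups compared (0.0221). OSM+TGFB raised it 3.60-fold and EGF+TGFB 2.80-fold. EGF+OSM+TGFB raised it 12.96-fold (3.70 ± 0.17, adjusted p 6.02e-15). The single-ligand values sum to -0.60, so the response to all 3 exceeded their sum by 4.29 ± 0.35 (adjusted p 1.9e-09). The call for EGF+OSM (-0.41, adjusted p 0.0472) was lost without PBS replicate 1 (adjusted p 0.0766), PBS replicate 3 (0.139) or EGF+OSM replicate 3 (0.287).

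WNT5B, on chromosome 12 (1529891 to 1647212, plus strand), is a close relative of WNT5A. It was scarce without TGFB, from 0.0750 CPM in the lowest PBS library to 0.490 CPM in the highest EGF library. TGFB libraries held 1.93, 1.66 and 1.42 CPM, EGF+TGFB libraries 3.41, 3.73 and 3.22 CPM, OSM+TGFB libraries 4.41, 3.94 and 3.75 CPM, and EGF+OSM+TGFB libraries 2.94, 2.51 and 2.32 CPM. Every library with TGFB lay above every library without it. TGFB raised WNT5B 9.98-fold (3.32 ± 0.31, adjusted p 3.19e-09) and OSM+TGFB raised it 24.1-fold (4.59 ± 0.30, adjusted p 5.64e-13). The smaller rise with EGF (1.08, adjusted p 0.00945) lost its call without PBS replicate 1 (0.76, adjusted p 0.0684) or EGF replicate 1 (0.77, adjusted p 0.0838). That with OSM (1.1, adjusted p 0.0109) lost it without PBS replicate 1 (0.78, adjusted p 0.074) or OSM replicate 2 (0.94, adjusted p 0.0566). With EGF+OSM the log2 fold change was 0.28 and was not called.

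WNT7A (chromosome 3, 13816258 to 13880071, minus strand) is an epithelial ligand that can signal through beta-catenin. T0 libraries held 0.319, 0.718 and 0.630 CPM and PBS libraries 0.550, 0.345 and 0.269 CPM. EGF libraries held 6.01, 5.27 and 5.22 CPM, OSM libraries 0.569, 0.621 and 1.11 CPM, and TGFB libraries 2.30, 2.04 and 2.18 CPM. EGF+OSM libraries held 4.36, 3.38 and 2.45 CPM, EGF+TGFB libraries 22.4, 21.8 and 18.2 CPM, OSM+TGFB libraries 3.09, 2.90 and 3.66 CPM, and EGF+OSM+TGFB libraries 11.6, 9.23 and 9.90 CPM. EGF+TGFB stood above all other groups, and the groups with OSM added to EGF lay below their counterparts without it.

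EGF raised WNT7A 14.2-fold (3.82 ± 0.26, adjusted p 1.17e-12) and TGFB raised it 5.60-fold (2.48 ± 0.28, adjusted p 1.01e-07). EGF+TGFB raised it 53.6-fold (5.74 ± 0.25, adjusted p 1.57e-16), which differed from the sum of the single values by -0.56 ± 0.35 (adjusted p 0.235). OSM added to EGF+TGFB lowered it (-1.02 ± 0.18, adjusted p 8.61e-05). OSM added to EGF also lowered it (-0.70 ± 0.20, adjusted p 0.00667), a call lost without EGF+OSM replicate 3 (-0.51, adjusted p 0.0628). The rise with OSM alone (0.98, adjusted p 0.0118) was lost without OSM replicate 3 (0.63, adjusted p 0.134) or PBS replicate 3 (0.78, adjusted p 0.0642).

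WNT7B (chromosome 22, 45920366 to 45977162, minus strand), the paralogue of WNT7A, went the other way with EGF. T0 libraries held 4.45, 4.42 and 4.10 CPM, PBS libraries 7.80, 8.31 and 8.92 CPM, EGF libraries 2.83, 3.11 and 3.27 CPM, and OSM libraries 1.79, 1.53 and 1.05 CPM. TGFB libraries held 15.7, 16.0 and 19.5 CPM, EGF+OSM libraries 0.785, 0.629 and 0.531 CPM, and EGF+TGFB libraries 2.37, 2.53 and 2.47 CPM. OSM+TGFB libraries held 2.47, 2.44 and 2.29 CPM and EGF+OSM+TGFB libraries 0.881, 1.19 and 0.690 CPM. TGFB alone was the only treatment above PBS, and the 2 groups with both EGF and OSM had the lowest means.

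EGF lowered WNT7B 2.72-fold (-1.44 ± 0.14, adjusted p 1.04e-09) and OSM lowered it 5.71-fold (-2.51 ± 0.15, adjusted p 2.7e-13). TGFB raised it 2.05-fold (1.03 ± 0.13, adjusted p 6.15e-07). EGF added to TGFB lowered it by more than EGF did in PBS, with a difference of -1.35 ± 0.20 (adjusted p 1.72e-05). It was also higher in PBS than at T0 (0.95 ± 0.14, adjusted p 5.79e-06). WNT5A was 0.45 ± 0.18 higher in PBS than at T0, with libraries that did not overlap, which was not called (adjusted p 0.0608) but was called in DESeq2 (0.0255) and with only the groups compared (0.0135).

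WNT3 (chromosome 17, 46762506 to 46833154, minus strand) is a canonical ligand that acts through beta-catenin. T0 libraries held 1.62, 1.30 and 1.59 CPM, PBS libraries 1.18, 1.12 and 0.953 CPM, EGF libraries 2.52, 2.04 and 1.78 CPM, and OSM libraries 3.53, 2.80 and 3.13 CPM. TGFB libraries held 2.87, 2.11 and 2.29 CPM, EGF+OSM libraries 2.41, 2.37 and 2.48 CPM, and EGF+TGFB libraries 7.09, 7.09 and 6.86 CPM. OSM+TGFB libraries held 9.10, 9.37 and 8.74 CPM and EGF+OSM+TGFB libraries 12.6, 12.1 and 12.1 CPM. The groups that combined TGFB with another ligand were separate from each other and from all the rest. OSM, TGFB, EGF+OSM and EGF were neighbours that overlapped.

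EGF+OSM+TGFB raised WNT3 11.3-fold (3.49 ± 0.14, adjusted p 1.23e-17) and OSM+TGFB raised it 8.35-fold (3.06 ± 0.14, adjusted p 2.75e-16). TGFB raised it in each of the 4 starting conditions, by 1.16 (PBS), 1.73 (EGF present), 1.53 (OSM present) and 2.34 (both present) on the log2 scale. The main row held 84.5% of its counts, and 2 rows with other identifiers and the same symbol held 8.38% and 7.14%. The latter were at 0 in all T0, PBS and OSM libraries and took, for example, 41 and 7 counts beside 65 in EGF replicate 1. With the main row alone, the calls with EGF (0.70, adjusted p 0.0554) and EGF+OSM (0.70, adjusted p 0.0523) were lost. The call for EGF+OSM+TGFB against OSM+TGFB was lost as well (0.595, adjusted p 0.0822). How reads were split between near-identical rows was not tested.

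WNT4 (chromosome 1, 22117313 to 22143969, minus strand) was the ligand most reduced by EGF. T0 libraries held 5.41, 5.70 and 4.55 CPM and PBS libraries 4.85, 6.41 and 6.92 CPM. TGFB libraries held 1.72, 1.73 and 2.21 CPM, OSM+TGFB libraries 0.786, 0.776 and 0.465 CPM, and OSM libraries 0.484, 0.488 and 0.189 CPM. All 12 libraries with EGF held between 0.0313 and 0.220 CPM. Thus T0 and PBS overlapped, TGFB was clearly lower, and the groups with EGF lay near the bottom and overlapped their neighbours.

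EGF lowered WNT4 50.2-fold (-5.65 ± 0.33, adjusted p 4.94e-14) on a total of 16 counts in 3 EGF libraries against 774 in PBS. OSM lowered it 15.4-fold (-3.95 ± 0.28, adjusted p 4.04e-12) and TGFB lowered it 3.21-fold (-1.68 ± 0.23, adjusted p 2.38e-06). The combinations fell less than the single values add to: the difference was 3.17 ± 0.73 for EGF+OSM (adjusted p 0.00118) and 5.5 ± 0.76 for all 3 (adjusted p 1.3e-06), or 4.83 without EGF+OSM+TGFB replicate 1. With 8 to 19 counts in each group that held EGF, a further fall was hard to detect at this depth.

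WNT10A (chromosome 2, 218880852 to 218899581, plus strand) is a ligand known for roles in skin appendages and teeth. It was highest at T0 (1.75, 1.68 and 2.45 CPM) and in PBS (1.1, 0.841 and 1.66 CPM). EGF libraries held 0.312, 0.299 and 0.341 CPM, OSM libraries 0.0854, 0.133 and 0.108 CPM, and TGFB libraries 0.287, 0.432 and 0.573 CPM. The 3 EGF+OSM libraries held 0 counts, EGF+TGFB held 4, OSM+TGFB 1 and EGF+OSM+TGFB 2, against 151 in PBS. The single ligands thus left the gene detectable and the combinations took it to a handful of reads.

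OSM lowered WNT10A 10.6-fold (-3.40 ± 0.40, adjusted p 6.93e-08), EGF 3.76-fold (adjusted p 2e-05) and TGFB 2.78-fold (adjusted p 0.00102). Against the limit of 3 counts over the group (0.0251 CPM), EGF+OSM was at least 47.8-fold lower than PBS. The ratio of PBS to OSM+TGFB was 125 (95% exact interval 22 to 4948) and that of PBS to EGF+OSM+TGFB was 60.2 (16.4 to 502). These intervals and the limit cover counting error only.

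DKK1 (chromosome 10, 52314281 to 52318042, plus strand), which blocks LRP5 and LRP6 and is itself a target of beta-catenin, was abundant. T0 libraries held 100.5, 84.9 and 85.1 CPM, PBS libraries 82.7, 91.8 and 89.4 CPM, and EGF libraries 62.7, 66.5 and 73.2 CPM. OSM libraries held 6.66, 9.21 and 7.56 CPM, TGFB libraries 165.6, 187.3 and 187.3 CPM, and EGF+OSM libraries 18.9, 18.7 and 23.6 CPM. EGF+TGFB libraries held 55.7, 58.7 and 69.2 CPM, OSM+TGFB libraries 13.8, 15.0 and 13.5 CPM, and EGF+OSM+TGFB libraries 6.02, 7.32 and 5.99 CPM. TGFB alone stood above every other group, and all 4 groups with OSM stood below all 5 without it.

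OSM lowered DKK1 11.2-fold (-3.48 ± 0.12, adjusted p 1.75e-17) and TGFB raised it 2.05-fold (1.03 ± 0.10, adjusted p 1.1e-08). EGF lowered it 1.30-fold (-0.38 ± 0.10, adjusted p 0.00136). EGF added to OSM raised it (1.37 ± 0.12, adjusted p 1.26e-09), so that EGF+OSM exceeded the sum of the single values by 1.76 ± 0.16 (adjusted p 3.81e-09). EGF added to TGFB lowered it (-1.56 ± 0.10, adjusted p 2.25e-12), and EGF+TGFB lay 1.18 ± 0.14 under the sum (departure -1.18, adjusted p 1.73e-06). With all 3 ligands it was 13.7-fold lower than in PBS (-3.78 ± 0.12, adjusted p 2.35e-18).

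SFRP1 (chromosome 8, 41261962 to 41309473, minus strand), which binds WNT ligands, was the most abundant of the 10 per length and was lowest in PBS. T0 libraries held 402.2, 402.3 and 429.6 CPM, PBS libraries 230.3, 236.1 and 238.7 CPM, and EGF libraries 310.6, 338.0 and 366.6 CPM. OSM libraries held 355.5, 372.2 and 362.0 CPM, TGFB libraries 453.0, 437.4 and 474.6 CPM, and EGF+OSM libraries 280.3, 296.0 and 294.0 CPM. EGF+TGFB libraries held 308.8, 320.2 and 341.7 CPM, OSM+TGFB libraries 344.8, 353.2 and 341.5 CPM, and EGF+OSM+TGFB libraries 272.0, 256.9 and 285.8 CPM. Every other library lay above all 3 PBS libraries, and group means differed by at most 1.94-fold.

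SFRP1 fell 1.75-fold from T0 to PBS (-0.81 ± 0.05, adjusted p 3.31e-11). TGFB raised it 1.94-fold over PBS (0.95 ± 0.05, adjusted p 2.53e-13), OSM 1.54-fold and EGF 1.44-fold. All 4 combinations lay under the sum of the single values, with departures of -0.85 in EGF+OSM, -1.02 in EGF+TGFB, -1.02 in OSM+TGFB and -1.90 ± 0.11 in all 3 (adjusted p 8.84e-13). These 4 values share the PBS libraries, which held the lowest levels. The rise with EGF+OSM+TGFB (0.21, adjusted p 0.00108) was 0.11 under upper-quartile scaling (adjusted p 0.0477). This small rise depends on the scaling, whose factors differed between the groups. By the trimmed mean of M-values they were 0.867, 0.876 and 0.891 in EGF+OSM+TGFB and 1.12, 1.08 and 1.09 in PBS.

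DKK3 (chromosome 11, 11956207 to 12009769, minus strand) was near the limit of detection, with 195 counts in all 27 libraries. PBS libraries held 0, 0.0647 and 0.0489 CPM and EGF+TGFB libraries 0.467, 0.405 and 0.514 CPM, the lowest well above the highest PBS library. EGF+TGFB raised it 11.0-fold (3.45 ± 0.56, adjusted p 4.63e-06), on 52 counts against 5 in PBS, and EGF+OSM+TGFB raised it 8.92-fold (3.16, adjusted p 2.33e-05). These folds rest on few PBS counts: without PBS replicate 2 the log2 fold changes were 4.05 and 3.76, and without PBS replicate 1 they were 2.94 and 2.64, all called. The call with TGFB alone (1.90, adjusted p 0.021) was lost without PBS replicate 1 (1.38, adjusted p 0.0965) or TGFB replicate 2 (1.83, adjusted p 0.0586). OSM, with 3 counts, did not differ detectably from PBS at this depth.

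Divided by the length of each gene's reference transcript, the 7 ligands can be compared with each other. Their summed level was 5.97 CPM per kilobase in PBS, 2.61 in OSM, 2.79 in EGF+OSM and 4.11 in EGF. It was 8.73 in TGFB, 10.6 in OSM+TGFB, 13.1 in EGF+TGFB and 23.9 in EGF+OSM+TGFB. The leading ligand among the 7 changed with treatment. It was WNT4 at T0 (26.3% of the sum) and WNT7B in PBS (35.4%) and TGFB (49.6%). It was WNT7A in EGF (33.6%) and EGF+TGFB (40.0%), and WNT3 in OSM (36.7%). WNT5A led in OSM+TGFB (42.2%) and EGF+OSM+TGFB (67.7%). In these groups the same ligand led in all 3 libraries, except at T0, where it did in 2 of 3. In EGF+OSM no ligand stood out: WNT5A (0.935 ± 0.235) and WNT7A (0.851 ± 0.239 CPM per kilobase) differed by less than their spread, and WNT3 led in replicate 3. On the same scale SFRP1 stood at 52.7 CPM per kilobase in PBS and 60.8 in EGF+OSM+TGFB, and DKK1 at 48.7 and 3.57. In every group SFRP1 per kilobase exceeded the sum of the 7 ligands. The sum and the ranking leave out other WNT genes. WNT9A, described below, held 16.0 CPM in PBS against 8.34 for WNT7B, without division by length. In EGF+TGFB it held 50.2 CPM against 20.8 for WNT7A. With all 3 ligands it held 42.8 CPM, below WNT5A at 94.4.

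Each ligand was next followed in 4 starting conditions, PBS, each other single ligand, and both others together. TGFB raised WNT3, WNT5B and WNT7A in 4 of 4 conditions, and WNT5A, WNT7B and DKK3 in 3 of 4 with the remaining value not called. For WNT7B that value, with EGF present, was negative (-0.32, adjusted p 0.0781). The WNT7B call with both others present and all 3 DKK3 calls were lost when certain single libraries were left out. EGF lowered WNT4 and WNT7B and raised WNT7A and DKK3 in 4 of 4. OSM lowered WNT7B and DKK1 in 4 of 4. Of the 30 pairs of a gene and a ligand, 20 were called in 1 direction only, 9 in both directions depending on the other ligands, and DKK3 with OSM was never called. The same count was not made over all tested genes, so whether 9 is many is not known. Some of the 9 rest on calls lost when single libraries were left out, as given above and below. Among the 9, OSM lowered WNT5A in PBS (-0.67) and raised it with TGFB (1.41) and with EGF+TGFB (2.21).

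**Figure D3:**
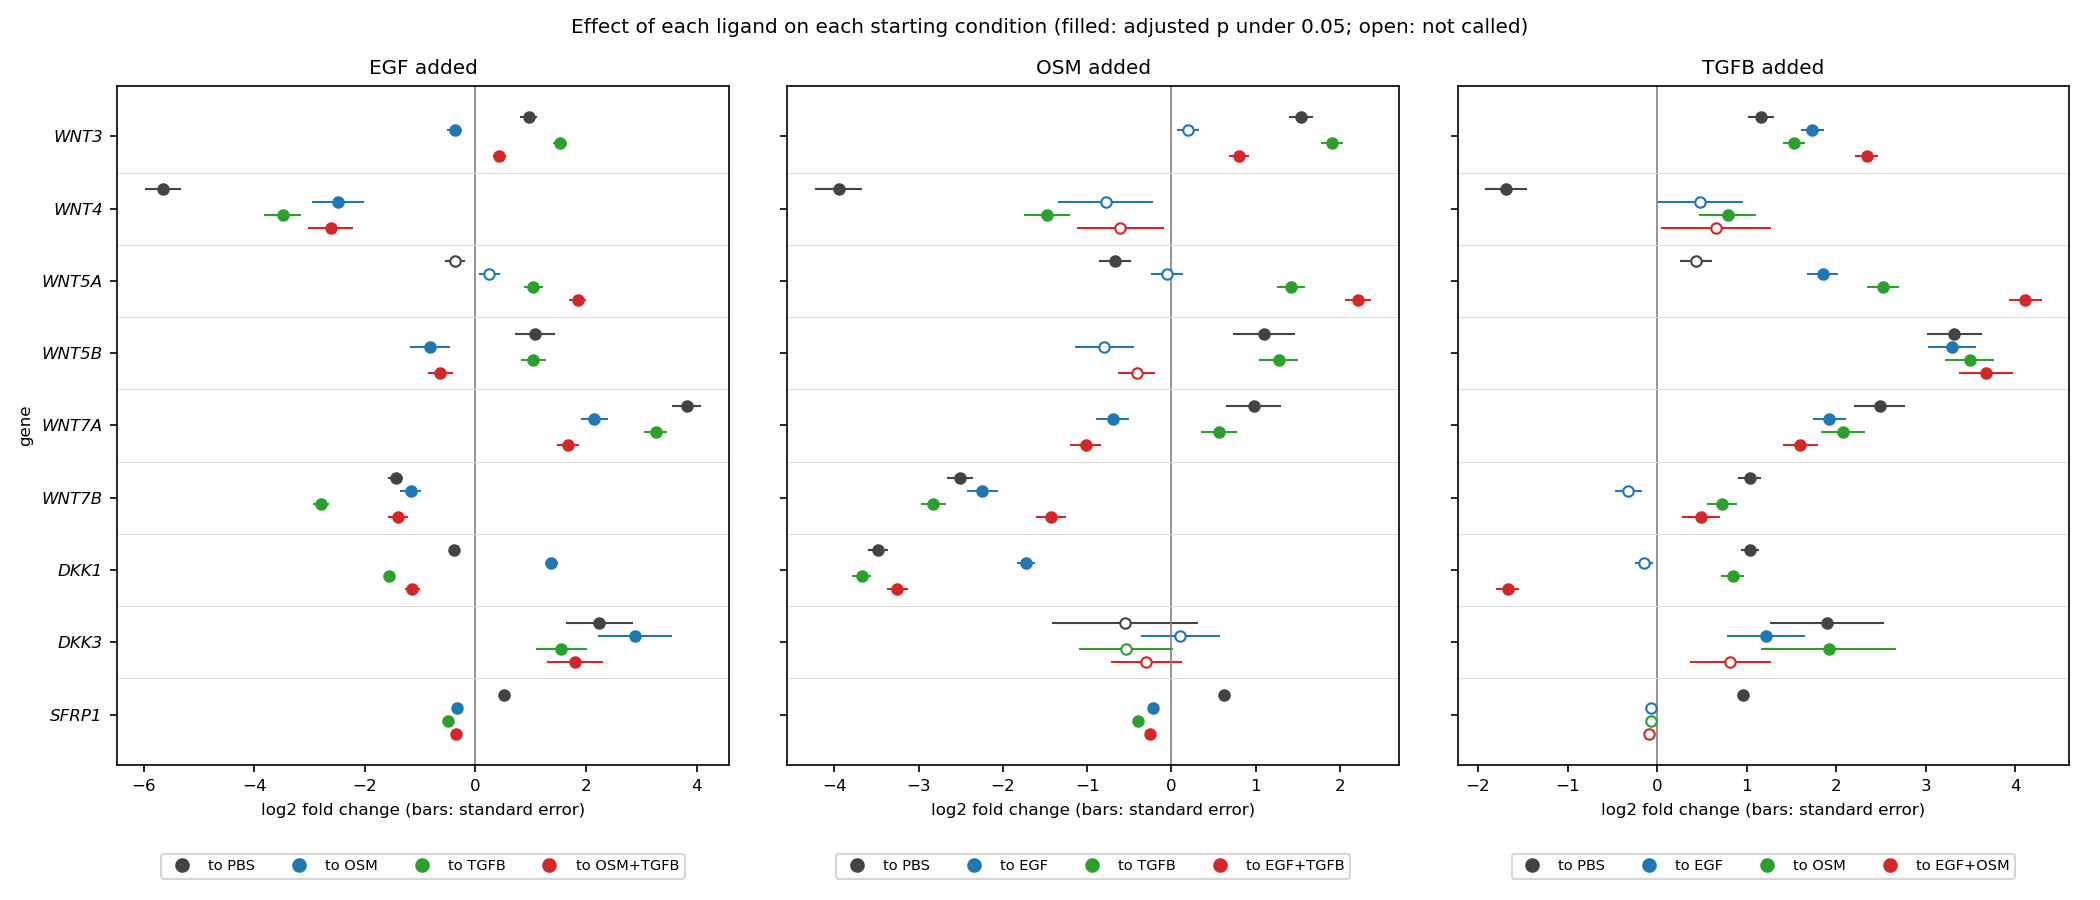
Log2 fold change (x axis, bars are standard errors) when EGF, OSM or TGFB (panels) was added to PBS or to cells that had the other ligands (colours), for 9 genes (rows). Filled points were called; WNT10A is left out because several groups held at most 2 counts. TGFB points for WNT3, WNT5B and WNT7A are all to the right of 0, whereas OSM points for WNT5A and WNT7A lie on both sides.

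Adding a second ligand to a first called 5 genes for EGF+OSM against EGF (34.9% of all genes) and 9 against OSM (61.7%). It called 6 for EGF+TGFB against EGF (54.6%) and 10 against TGFB (69.4%), and 9 for OSM+TGFB against OSM (51.6%) and 9 against TGFB (56.6%). Adding the third called 6 against EGF+OSM (61.1%), 6 against EGF+TGFB (26.4%) and 9 against OSM+TGFB (52.2%). The step from EGF+TGFB to all 3, which adds OSM, had the lowest share of all genes called (26.4%). In most other steps the share was too high for even 10 of 10 genes to stand far above it. In that step WNT3 (0.80) and WNT5A (2.21) were higher and WNT7A (-1.02), WNT7B (-1.43), DKK1 (-3.25) and SFRP1 (-0.25) were lower.

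Some of these calls rested on single libraries. WNT4 in OSM+TGFB against OSM (0.79, adjusted p 0.0413) was lost without OSM replicate 3 (0.47, adjusted p 0.227) or either of OSM+TGFB replicates 1 and 2 (adjusted p 0.139 and 0.13). WNT5B in EGF+OSM against OSM (-0.82, adjusted p 0.0498) was lost without any of OSM replicates 1 and 2 and EGF+OSM replicates 1 and 3 (adjusted p 0.0749, 0.183, 0.105 and 0.168). WNT3 there (-0.38, adjusted p 0.016) was lost without OSM replicate 1 (-0.29, adjusted p 0.0942). WNT7B in EGF+OSM+TGFB against EGF+OSM (0.49, adjusted p 0.049) was lost without any 1 of 4 libraries, with its lowest value, 0.29, without EGF+OSM+TGFB replicate 2 (adjusted p 0.311).

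WNT7A in OSM+TGFB against TGFB (0.56, adjusted p 0.0276) was lost without OSM+TGFB replicate 3 (0.46, adjusted p 0.114) or TGFB replicates 2 (0.0833) or 3 (0.0563). WNT5B in EGF+OSM+TGFB against OSM+TGFB (-0.64, adjusted p 0.0201) was lost without OSM+TGFB replicate 1 (0.0743) or EGF+OSM+TGFB replicates 2 (0.0539) or 3 (0.0794). DKK3 in EGF+TGFB against EGF (1.22, adjusted p 0.0198) was lost without EGF replicate 1 (0.0625) or 3 (0.0996). DKK3 in OSM+TGFB against OSM (1.91, adjusted p 0.0367) was lost without any OSM library or without OSM+TGFB replicate 3 (1.06, adjusted p 0.411).

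Departures, obtained by subtracting the summed single-ligand log2 fold changes from that of the combination, address whether responses add. Departures were called for 7 genes with EGF+OSM (38.7% of all genes), 6 with EGF+TGFB (29.8%), 3 with OSM+TGFB (23.3%) and 5 with EGF+OSM+TGFB (48%). For OSM+TGFB the 3 were WNT4 (2.47), WNT5A (2.08) and SFRP1 (-1.02), and for EGF+OSM+TGFB they were WNT4, WNT5A, WNT7A, DKK1 and SFRP1. WNT3 (-1.34), WNT5B (-1.90) and WNT7A (-1.67) all lay under the sum in EGF+OSM. WNT3 in EGF+TGFB (0.57, adjusted p 0.0287) lost its call without any of 8 libraries left out singly, with an adjusted p of up to 0.0894. Its call was also lost with the main WNT3 row alone (0.78, adjusted p 0.198). WNT10A in EGF+OSM, with 0 counts in the combination, was called (adjusted p 0.0389) and lost the call without PBS replicate 2 (0.0592), OSM replicate 2 (0.0645) or any EGF+OSM library (0.0898, 0.106 and 0.0951).

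**Figure D4:**
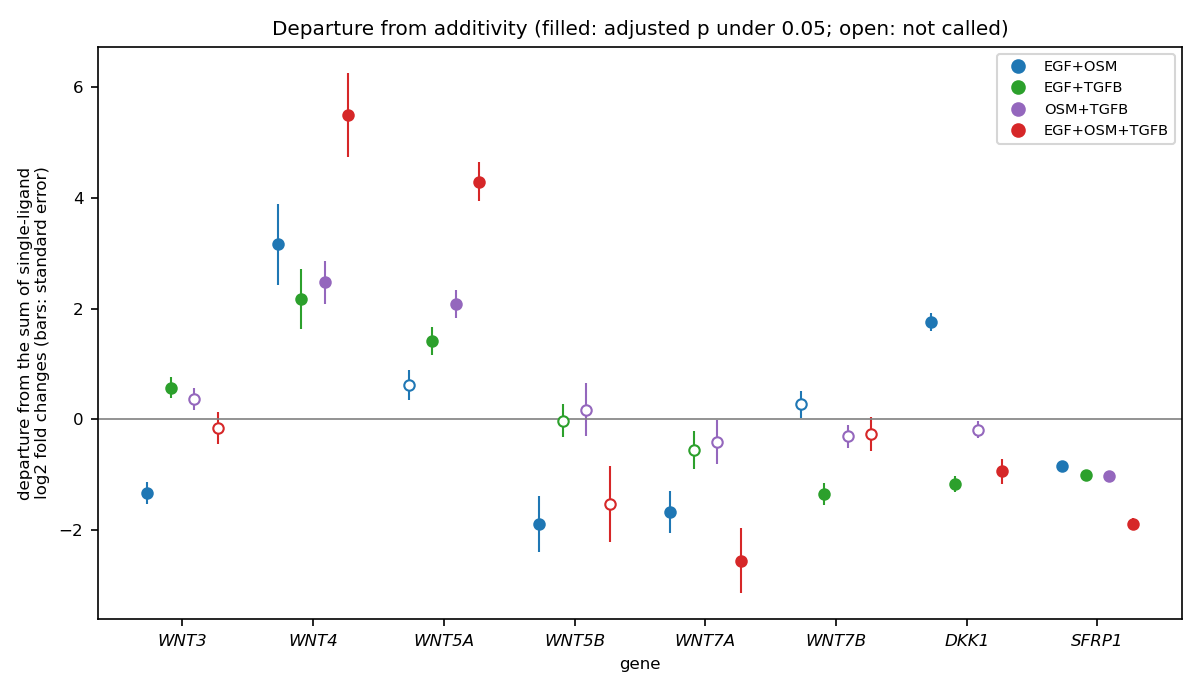
Departure of each combination (colours) from the sum of the single-ligand log2 fold changes (y axis, bars are standard errors) for 8 genes (x axis); 0 means that log2 fold changes add. Filled points were called; WNT10A and DKK3 are left out for low counts. WNT5A rises to 4.29 with all 3 ligands, and the 4 SFRP1 points lie from -0.85 to -1.90.

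The rest of the pathway was read from lists by role, which were chosen with earlier results of these data known. Of 12 other WNT ligands 5 were tested. EGF lowered 4 (38.6% of all genes) and raised 1 (34.9%), WNT10B, from 0.532 ± 0.166 to 4.68 ± 0.32 CPM (3.13 ± 0.24, adjusted p 1.05e-11). TGFB raised 2 (19.9%). These were WNT9A, from 16.0 ± 1.1 to 30.7 ± 3.7 CPM, and WNT11, a beta-catenin-independent ligand, from 1.77 ± 0.68 to 6.41 ± 1.06 CPM (1.85, adjusted p 0.0024). WNT9A was highest in EGF+TGFB (50.2 ± 5.2 CPM). The list's median log2 fold change was -0.78 with EGF (all genes -0.07) and 0.25 with TGFB (all genes -0.01).

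Of 17 other antagonists 5 were tested. APCDD1, a membrane inhibitor and target of the pathway, fell from 19.4 ± 0.3 CPM in PBS to 4.09 ± 0.82 in EGF, 2.64 ± 0.19 in OSM and 0.879 ± 0.039 in EGF+OSM (-4.46 ± 0.17, adjusted p 1.34e-17). TRABD2A, a protease that inactivates WNT proteins, rose from 8.00 ± 0.83 to 33.5 ± 1.0 CPM with EGF (2.07 ± 0.11, adjusted p 8.22e-15). Its relative TRABD2B fell from 6.98 ± 1.00 to 0.865 ± 0.200 CPM with EGF and rose to 12.8 ± 1.2 CPM with TGFB. KREMEN1, a DKK1 receptor, rose with OSM (72.6 ± 3.7 against 49.6 ± 1.6 CPM). EGF raised 2 of the 5 (34.9% of all genes) and lowered 3 (38.6%), and TGFB raised 3 (19.9%).

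Among 14 tested receptors and co-receptors of 16, TGFB raised 8 (19.9% of all genes) and lowered 1 (15.8%), and EGF raised 3 (34.9%) and lowered 7 (38.6%). The 8 became 5 under upper-quartile scaling and without PBS replicate 2 or TGFB replicate 1, and 4 without a filter and without TGFB replicate 2 or 3. The Frizzled receptor FZD2 rose from 15.9 ± 2.7 to 35.1 ± 0.4 CPM with TGFB (1.14 ± 0.12, adjusted p 4.44e-08) and fell to 5.53 ± 0.28 CPM with EGF. ROR1, a receptor for WNT5A, was at 19.6 ± 0.3 CPM in PBS and fell to 4.77 ± 0.17 CPM in EGF+OSM (-2.04 ± 0.11, adjusted p 1.09e-14) and to 5.93 ± 1.20 CPM in EGF+OSM+TGFB (-1.73 ± 0.11, adjusted p 2.65e-13). PTK7, a co-receptor in planar cell polarity, rose from 95.2 ± 3.4 to 214.6 ± 4.9 CPM with OSM+TGFB (1.17 ± 0.06, adjusted p 9.21e-16). The list's median was -0.17 with EGF, 0.18 with TGFB and -0.42 with all 3 ligands, beside -0.07, -0.01 and 0.00 for all genes.

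In the list of ligand processing and the R-spondin arm, 9 of 14 genes were tested, and OSM raised 2 (33.5% of all genes) and lowered 4 (29.8%). RSPO2, a secreted agonist that strengthens WNT signals, fell from 4.45 ± 0.31 CPM in PBS to 0.137 ± 0.032 in OSM and 0.223 ± 0.104 in EGF (-4.31 ± 0.31, adjusted p 3.3e-12). The WNT carrier WLS rose with TGFB (52.5 ± 1.2 against 40.0 ± 1.9 CPM) and fell with all 3 ligands (30.3 ± 1.6 CPM). The glypican GPC4 rose to 18.3 ± 0.9 CPM with OSM+TGFB from 4.69 ± 0.48 CPM (1.96 ± 0.10, adjusted p 1.51e-15).

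All 23 transducers and transcription factors were tested. TGFB raised 9 (19.9% of all genes), whereas EGF raised 7 (34.9%) and lowered 13 (38.6%), and OSM raised 8 (33.5%) and lowered 13 (29.8%). With TGFB 2 were lower under upper-quartile scaling and in DESeq2. CTNNB1, which encodes beta-catenin, rose from 277.7 ± 9.9 to 511.3 ± 19.3 CPM with TGFB (0.88 ± 0.05, adjusted p 9.39e-14) and to 663.8 ± 10.2 CPM with OSM+TGFB. TCF7L1, often a repressor, rose from 0.961 ± 0.126 to 6.71 ± 0.14 CPM with OSM+TGFB (2.80 ± 0.16, adjusted p 2.24e-14). The co-repressor TLE2 fell from 4.40 ± 0.21 to 0.735 ± 0.124 CPM with EGF (-2.57 ± 0.25, adjusted p 7.95e-10).

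Among 13 tested target genes of 17, DKK1 included, EGF raised 6 (34.9% of all genes) and lowered 4 (38.6%), and OSM raised 3 (33.5%) and lowered 4 (29.8%). The lists overlap: APCDD1 is also among the other antagonists, and RNF43 and ZNRF3 are also in the R-spondin list. TGFB raised 4 (19.9%) and lowered 3 (15.8%), or 1 without TGFB replicate 1. AXIN2, a feedback inhibitor often read as a marker of beta-catenin activity, stood at 2.43 ± 0.18 CPM in PBS. TGFB raised it to 8.08 ± 0.95 CPM (1.73 ± 0.24, adjusted p 1.82e-06) and OSM+TGFB to 5.5 ± 0.92 CPM (1.18, adjusted p 0.000104). EGF lowered it to 0.232 ± 0.043 CPM (-3.35 ± 0.32, adjusted p 5.79e-10), EGF+TGFB to 0.241 ± 0.066 CPM and EGF+OSM+TGFB to 0.309 ± 0.148 CPM. AXIN2 was therefore low in every group with EGF, the group with the highest summed level of the 7 ligands included. With OSM alone it was 1.84 ± 0.71 CPM (-0.39, adjusted p 0.178).

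Some targets went with AXIN2 in part of the groups and others did not. DKK1, as above, rose with TGFB and was lower in the groups with EGF. APCDD1 was lower in the groups with EGF but was not called with TGFB (-0.01). Both parted from AXIN2 with OSM. In OSM+TGFB, where AXIN2 was higher (1.18), DKK1 (-2.64) and APCDD1 (-2.35) were lower. With OSM alone DKK1 (-3.48) and APCDD1 (-2.88) were lower, whereas AXIN2 was not called. LEF1, which is both a factor and a target, rose from 1.60 ± 0.12 to 5.82 ± 0.57 CPM with EGF (1.86 ± 0.15, adjusted p 3.56e-11) and to 5.96 ± 0.34 CPM with OSM. CCND1, a cell-cycle gene that many pathways raise, rose from 42.0 ± 1.4 to 227.3 ± 12.4 CPM with EGF (2.44 ± 0.14, adjusted p 5.31e-13). CD44 rose from 395.6 ± 11.3 to 1093 ± 49 CPM with OSM (1.47 ± 0.05, adjusted p 1.12e-18). NKD1 was lower with EGF (-1.37, adjusted p 0.00019), as AXIN2 was, but was also lower with TGFB (-1.05, adjusted p 0.00601). RNF43 was higher with EGF (0.55) and lower with TGFB (-0.31, adjusted p 0.0305). ZNRF3 was higher with EGF (0.38) and not called with TGFB. The list thus held members that moved in opposite directions under the same ligand.

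**Figure D5:**
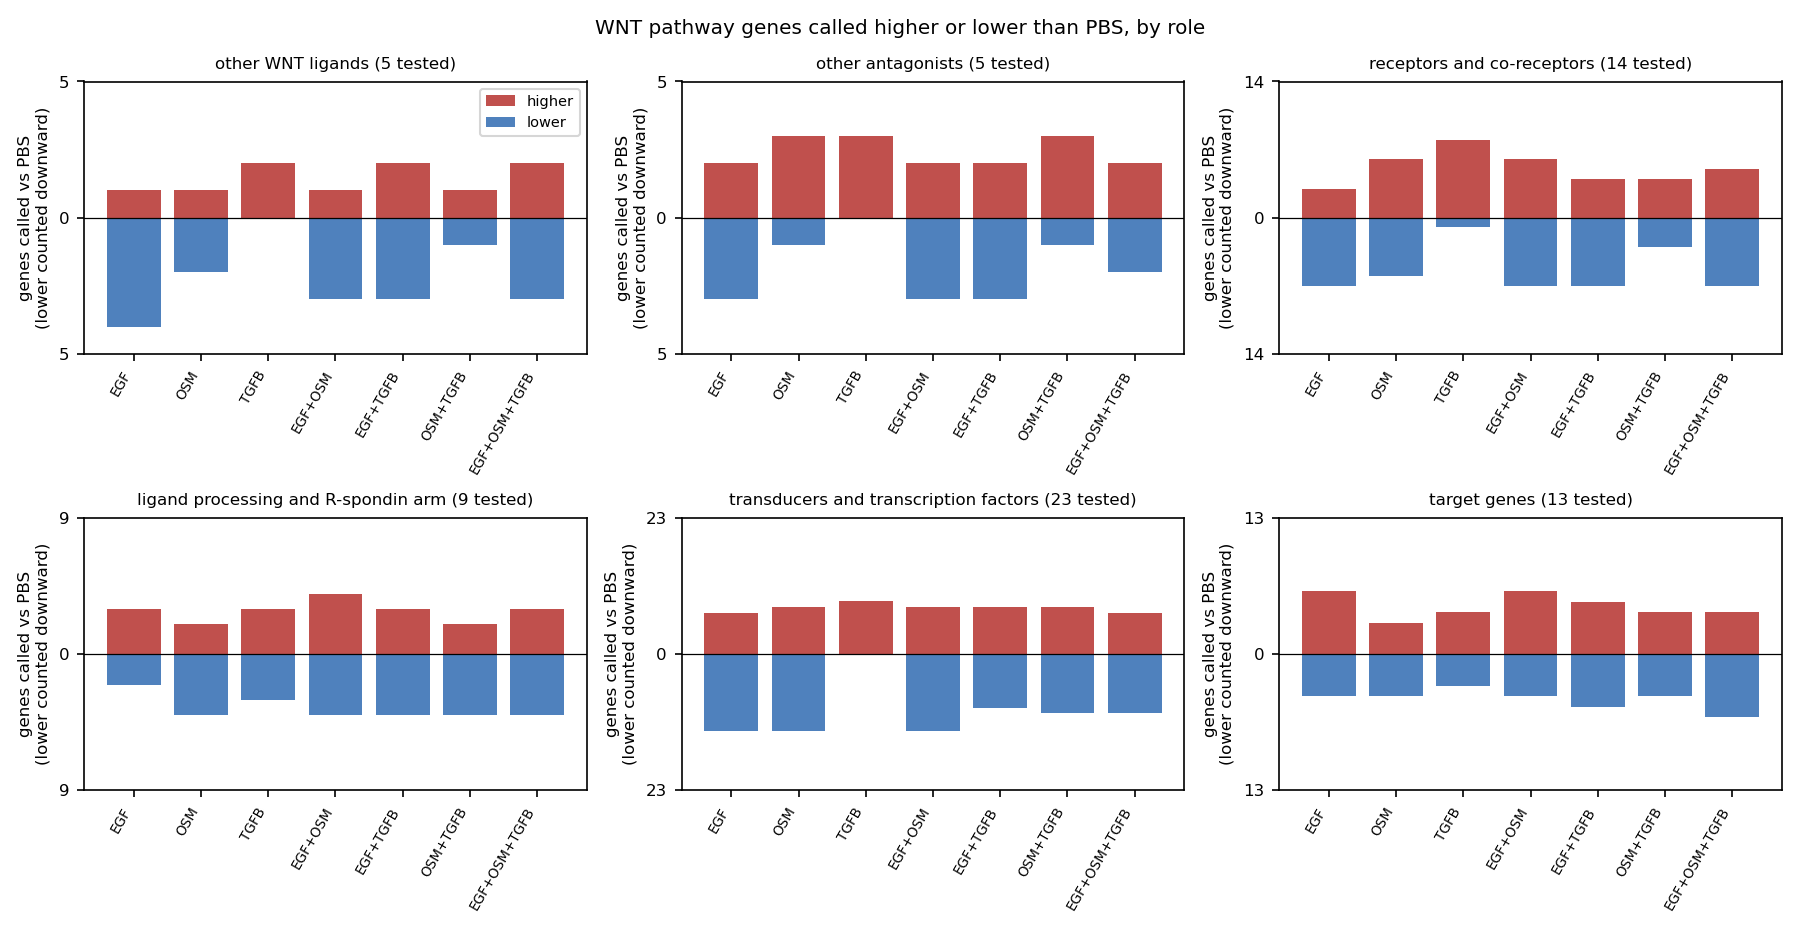
Number of genes called higher (red, upward) or lower (blue, downward) than PBS in each of 6 role lists (panels) for the 7 treatments (x axis); each y axis ends at the number tested. The lists overlap, so a gene can count in several panels. With TGFB, 9 of 23 transducers were higher, and with EGF 7 were higher and 13 lower.

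Similarity was taken as Pearson's r of log2 CPM, with 0.5 CPM added, over the 27 libraries, which share their 9 groups. The added 0.5 CPM narrows differences between low levels, as for DKK3, whose highest library held 0.514 CPM. For each gene the 2 most similar patterns were taken among genes with a mean of at least 1 CPM. They were RAB43 (r 0.978, Spearman's rho 0.94) and MLXIP (0.976, 0.934) for WNT3, and STAC2 (0.981, 0.93) and SELENBP1 (0.977, 0.905) for WNT4. For WNT5A they were BIRC2 (0.965, 0.881) and CDH11 (0.95, 0.73), and for WNT5B DBN1 (0.978, 0.918) and PRUNE2 (0.97, 0.916). WNT7A was followed by TMOD3 (0.979, 0.957) and RAPH1 (0.978, 0.959), and WNT7B by MAB21L4 (0.974, 0.974) and TGM5 (0.957, 0.956). WNT10A was nearest to PC (0.972, 0.888) and HOGA1 (0.963, 0.854). DKK1 was nearest to SPRR2D (0.951, 0.913) and SMOC1 (0.939, 0.828), and DKK3 to CORO1C (0.928, 0.89) and EDN1 (0.914, 0.88). The nearest to SFRP1, LIPT2 (0.831, 0.85) and FGFR2 (0.762, 0.81), were the least close of the 10 pairs.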

How the data were processed

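Libraries were made with a stranded kit from polyadenylated RNA of MCF10A cells, per the labels' protocols. The authors deposited estimated counts per Ensembl gene. The values were whole numbers, so rounding changed nothing; who rounded them is not given in the sources used here. Per the submitters' processing notes the tools included Trim Galore 0.4.3, cutadapt 1.10, FastQC 0.11.5, kallisto 0.46.2 and R 3.5.0, with builds GRCh38.p5 and hg38. Rows sharing a symbol (1962 symbols) were summed. The 7165 rows without a symbol, with 0.324% of the counts, kept their identifiers and stayed in the tests. Coordinates and transcript lengths are GENCODE v44 on GRCh38, matched by identifier, and promoters are RefSeq.

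Low counts were removed with filterByExpr by group, and libraries scaled by TMM. edgeR 4.0.16 in R 4.3.3 fitted a robust quasi-likelihood model with 1 mean per group over all 27 libraries (18 residual degrees of freedom, biological coefficient of variation 7.83%). Contrasts were adjusted by Benjamini-Hochberg over 15575 genes and called under 0.05; the SE is the log2 fold change divided by the square root of F. Replicate pairs differed by more than sampling noise (chi-square per degree of freedom 6.84 to 33.9). On data simulated for EGF against PBS (15173 genes), 96 of 100 genes changed 2-fold, 100 of 100 changed 4-fold and 15 unchanged genes were called. The changed genes were drawn from those with a mean over 1 CPM, and all other genes kept 1 mean in every group. The simulation thus does not cover genes as scarce as DKK3 or changes as widespread as those called here. Depth sets counting error, most for DKK3 and WNT10A.

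The members and lists were chosen with earlier results of these data known. All 10 members are named. Genes named from each pathway list had a mean of at least 1 CPM. They came from the up to 4 called with the largest change per comparison. Some values were added after they were seen. These were AXIN2, DKK1 and APCDD1 with OSM and OSM+TGFB, and NKD1, RNF43 and ZNRF3. Alternatives were relative log expression and upper-quartile scaling, DESeq2 1.42.0, no filter, a filter of 1 CPM in 3 libraries, rows as deposited, only the groups compared, a replicate block and leaving out each library.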

Additional observations from a re-analysis of the deposited data

Results flagged for a closer look

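For each gene and ligand, the effect in cells that had other ligands was compared with the effect in PBS by an interaction contrast (edgeR's quasi-likelihood test, Benjamini-Hochberg over all genes). Those whose effect was called with opposite signs in the 2 conditions, and whose difference was called, are listed as differences in log2 fold change. The 10 with 1 other ligand present are the departures of the pairs, and give 9 distinct contrasts. The 6 with 2 other ligands present were added after seeing the data. How many of all tested genes meet the same rule was not counted, so the number listed cannot be called high or low.

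SFRP1 gave 6 of the 16, which are 5 distinct contrasts because EGF with OSM present and OSM with EGF present are the same one. The effect of EGF on it changed by -0.85 with OSM present (adjusted p 1.61e-09), by -1.02 with TGFB (1.04e-09) and by -0.88 with both (7.82e-10). The effect of OSM on it changed by -0.85 with EGF, by -1.02 with TGFB and by -0.88 with both (adjusted p 6.31e-10 for the last). In each case the ligand raised SFRP1 in PBS and lowered it in the other condition.

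WNT5A gave 2. OSM lowered it in PBS, and its effect differed by 2.08 with TGFB (adjusted p 4.36e-06) and by 2.88 with EGF+TGFB (2.26e-09), where it raised the gene. For WNT7A the effect of OSM, a rise in PBS, changed by -1.67 with EGF (adjusted p 0.00101) and by -2.0 with EGF+TGFB (8.43e-05).

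The effect of EGF on WNT3 changed by -1.34 with OSM (adjusted p 5.4e-06). The effect of EGF on WNT5B changed by -1.90 with OSM (0.00413) and by -1.71 with OSM+TGFB (0.00156). For DKK1, EGF lowered the gene in PBS and raised it with OSM, a difference of 1.76 (adjusted p 3.81e-09), and TGFB raised it in PBS and lowered it with EGF+OSM, a difference of -2.70 (1.39e-11). TGFB lowered WNT4 in PBS and raised it with OSM, a difference of 2.47 (adjusted p 6.18e-05). The call for that rise was lost without certain single libraries, as given above. The same holds for at least 1 call behind each WNT3, WNT5B and WNT7A entry. The opposite signs are therefore not settled for these genes. The PBS libraries enter every one of these differences.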

How the results depend on the processing

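Of 3163 member fold changes recomputed, 3033 kept their direction and side of the threshold, 85 lost a call, 19 gained one and 26 changed sign; no called value changed sign. Counts of members moved by over 1.5 times in 3 of 433 cases. With only the groups compared, EGF+OSM against OSM called 4 members, not 9. Leaving out 1 library gave 7 to 9 there, 5 to 8 at 2-fold or more with TGFB (8 in full) and 0 to 1 for PBS against T0 (0 in full). The sign changes were in values that were not called. The WNT5B departure in EGF+TGFB (-0.03) was 0.018 without a filter and 0.0 with the replicate block. The WNT3 departure with all 3 ligands (-0.16) was 0.13 with rows as deposited, and the DKK3 departure in OSM+TGFB (0.015) was -0.006 with the replicate block. Leaving out single libraries moved DKK1 in PBS against T0 from -0.078 to 0.051, and WNT4 in EGF+OSM+TGFB against EGF+OSM from -0.021 to 1.1. It moved WNT5A in EGF+OSM against EGF from -0.18 to 0.14, and WNT5B in EGF+OSM against PBS from -0.041 to 0.53. WNT5B departures ran from -0.33 to 0.29 (EGF+TGFB) and -0.078 to 0.49 (OSM+TGFB), and that of WNT3 with all 3 ligands from -0.28 to 0.004. DKK3 ran from -0.12 to 0.48 in EGF+OSM against EGF, -1.07 to 0.047 in OSM against PBS, -0.84 to 0.53 in the OSM+TGFB departure and -1.63 to 0.60 in that of all 3. The cause was not tested.

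Deviations from the group mean were correlated between libraries with the same replicate number. These correlations were small and mostly above 0 (-0.05 to 0.37). In 13 of 36 pairs of groups every one was over 0.1. Sample numbers in the deposited column names also run replicate by replicate. What the libraries with the same number shared was not tested, and the main fit held no replicate term. With the replicate block 206 of 210 values kept their call and sign; WNT7B in EGF+OSM+TGFB against EGF+OSM lost its call (adjusted p 0.0599) and WNT10A in PBS against T0 gained one (0.0417). Upper-quartile scaling moved the median of all genes to -0.14 with EGF, -0.13 with EGF+OSM and -0.14 with EGF+TGFB. Rows as deposited ended the WNT3 call for PBS against T0 (adjusted p 0.289). Depth limits DKK3 and, in combinations, WNT10A and WNT4.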
